A study of Mus musculus with 6 samples.

Results

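Slc2a3, Hk2, Pfkm, Aldoc and Gys1 are 5 genes of glucose use, and they were followed in activated CD4+ T cells that have or lack the histone demethylase UTX. They were chosen by gene symbol from a table of 4162 genes, and all 5 passed the filter on low counts that left 4118 genes for testing. The data are RNA sequencing counts from 6 libraries, 3 from WT mice (B6.WT) and 3 from UTX TCD mice (B6.UTX TCD), with 3 mice per genotype. UTX TCD mice lack UTX in T cells, while the sources used here do not say what drives the deletion, which exons it removes or how old the mice were. All 6 cultures began as naive CD4+ T cells taken from spleen with a magnetic kit and were stimulated for 48 h with anti-CD28 in the medium over a coat of anti-CD3, so both genotypes share that treatment and no unstimulated group was measured. The series' title frames the question as how UTX regulates the sensing of hypoxia by T cells that cause colitis.

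Resting T cells use little glucose, and activation through the T cell receptor and CD28 raises glucose uptake and glycolysis. Glucose enters through facilitative transporters of the SLC2A family, is trapped by hexokinase as glucose 6-phosphate, and is then either broken down by phosphofructokinase, aldolase and the later enzymes of glycolysis or stored as glycogen by glycogen synthase. Hypoxia-inducible factor (HIF) and MYC are well-known activators of genes in this pathway, and HIF binds DNA at the core sequences ACGTG and GCGTG.

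Because HIF acts through those short cores, the DNA just before the start sites was searched for them. RefSeq promoter entries (build GRCm38.p6) were used for 4 of the 5 genes, and the promoter of Slc2a3 was not analysed here. The 250 bases before each listed start were searched on both strands for ACGTG or GCGTG, and separately for CACGTG, the E-box bound by MYC and related factors, which contains ACGTG. Of 32851 such windows in the RefSeq promoter table used, 38.6% held ACGTG or GCGTG and 6.02% held CACGTG. The windows below are printed 5′ to 3′ on the strand of the gene, without the bases that GENCODE annotates as exons. Capitals mark each core, which reads CACGT or CACGC where the match lies on the opposite strand. Hk2 and Pfkm are shown because their windows hold the cores, and Aldoc and Gys1 because they rose and these stretches hold none.
Hk2, chr6:82774455-82774704, minus strand: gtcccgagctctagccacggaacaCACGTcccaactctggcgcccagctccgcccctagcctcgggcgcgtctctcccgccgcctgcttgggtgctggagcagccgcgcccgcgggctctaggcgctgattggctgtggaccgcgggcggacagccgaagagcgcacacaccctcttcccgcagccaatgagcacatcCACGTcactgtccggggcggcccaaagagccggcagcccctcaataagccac
Pfkm, the first listed start, chr15:98092339-98092588, plus strand: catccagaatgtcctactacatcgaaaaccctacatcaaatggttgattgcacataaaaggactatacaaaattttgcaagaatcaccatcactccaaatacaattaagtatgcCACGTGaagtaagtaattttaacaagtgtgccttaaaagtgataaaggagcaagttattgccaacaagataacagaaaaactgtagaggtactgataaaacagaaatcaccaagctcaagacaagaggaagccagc
Pfkm, the second listed start, chr15:98108221-98108465, plus strand: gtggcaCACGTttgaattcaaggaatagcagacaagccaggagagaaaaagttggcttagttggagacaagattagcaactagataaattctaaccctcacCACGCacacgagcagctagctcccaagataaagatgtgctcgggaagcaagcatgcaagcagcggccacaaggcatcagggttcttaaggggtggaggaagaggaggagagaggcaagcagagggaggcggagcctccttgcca
Aldoc, the first listed start, chr11:78322823-78322967, plus strand: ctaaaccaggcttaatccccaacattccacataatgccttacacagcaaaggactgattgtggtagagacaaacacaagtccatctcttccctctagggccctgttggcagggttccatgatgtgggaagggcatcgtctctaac
Gys1, chr7:45434710-45434838, plus strand: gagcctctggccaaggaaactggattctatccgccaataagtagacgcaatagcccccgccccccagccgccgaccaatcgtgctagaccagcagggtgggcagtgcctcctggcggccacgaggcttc
The Hk2 window held 2 cores, starting 226 and 52 bases before the start. The first listed Pfkm start had the E-box CACGTG, 136 bases before it, in which ACGTG is read on both strands. The second had CACGT at 244 and CACGC at 149 bases before it. Of the other starts listed for Pfkm, the third had 1 core and the fourth had 0. The core of the third is that same CACGC, 234 bases before the third start, because the windows overlap. Each of the 2 Aldoc windows held 1 core, at 50 and 39 bases before the start, within bases annotated as exon and not printed. The Gys1 window held 0. Hk2, Pfkm and Aldoc thus had at least 1 window with a core, where 38.6% of all windows held a core. Pfkm and Aldoc had more than 1 window each. A link between cores and the changes between genotypes was not tested. A match is a description of the letters and not a site of binding.

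The table limits what a comparison of the genotypes can say. Of the 4118 tested genes, 20 had a log2 fold change within 0.1 of 0, so the listed genes appear to have been chosen by their difference between genotypes, and adjusting over a table chosen in that way makes p-values too small. Each library had between 8363326 and 10288306 counts in the listed genes. Levels are given in CPM, counts scaled by each library's total over the listed genes and edgeR's TMM factors, as mean ± SD of 3 libraries. Differences are given as log2 fold changes of UTX TCD over WT ± standard error. Genes are called higher or lower at an edgeR adjusted p under 0.05, which held for 68.1% of all tested genes, 41.1% higher and 27% lower. The higher share of calls was 60.4% with TMM, 70.6% with upper-quartile scaling and 45.8% with a scaling that puts the gap in the fold changes at 0. Kdm6a, the gene of UTX, averaged 283 ± 2.96 CPM in WT libraries, against 191 ± 14.4 CPM without UTX (-0.56 ± 0.09, edgeR adjusted p = 0.00293), counted over the whole gene. UTX TCD replicate 2 stood apart. Of the 1692 genes called higher, 1206 (71.3%) peaked in that library, as did 1352 (32.8%) of all tested genes. Biological variation between libraries (edgeR common coefficient) came to 8.01% for WT and 22.3% for UTX TCD.

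Markers of cell type could be read in part. Of 16 T cell markers 5 were in the table, with 2 called higher and 2 lower, and they summed to 4513 to 4802 CPM in WT and 4586 to 5535 CPM in UTX TCD libraries. Cd4, Cd3e and Cd8a were not analysed here. Lck, a kinase of T cell receptor signalling, was at 1490 to 1535 CPM in WT and 1348 to 1416 CPM in UTX TCD libraries, and was not called. Log2 fold changes were 1.10 for Cd2, 0.83 for Cd28 and -0.44 for Lat. Thy1 fell from 718 to 887 CPM in WT to 42.9 to 77.6 CPM in UTX TCD libraries. Cd8b1, a CD8 chain, rose from 11.6 to 14.5 CPM in WT to 31.5 to 56.2 CPM in UTX TCD libraries. The 4 B cell markers in the table, out of 13, summed to 473 to 576 CPM in WT and 498 to 801 CPM in UTX TCD libraries, with 0 called higher and 2 lower. Ighm made up most of that sum, at 431 to 527 CPM in WT and 471 to 759 CPM in UTX TCD libraries. Log2 fold changes were 0.38 for Ighm and 0.66 for Ighd, not called, and -0.84 for Igkc and -0.89 for Fcer2a, called lower. The 2 NK cell markers in the table, out of 10, summed to 23.0 to 59.4 CPM in WT and 25.7 to 53.5 CPM in UTX TCD libraries, with 1 called higher. Pecam1, the 1 gene in the table from a list of 10 stromal markers, rose from 113 to 138 CPM to 206 to 369 CPM. On its own it does not show that stromal cells were present. No myeloid, dendritic, erythroid or platelet marker was analysed here. The part of these markers in the results below was not tested, and in bulk RNA fewer cells with a transcript cannot be told apart from less of it per cell.

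In UTX TCD cells 3 of the 5 genes were called higher, Pfkm, Aldoc and Gys1, and Slc2a3 and Hk2 did not pass the test. Over all tested genes 68.1% were called and 41.1% called higher, so a count of 3 in 5 does not set these genes apart. Pfkm had 1.57-fold, Gys1 1.58-fold and Aldoc 2.97-fold the WT mean. Slc2a3 pointed the same way at 1.28-fold and Hk2 the other way, at 0.849 of its WT level. Groups did not overlap for any of the 5, as for 85.8% of all tested genes in this selected table.

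**Figure D1:**
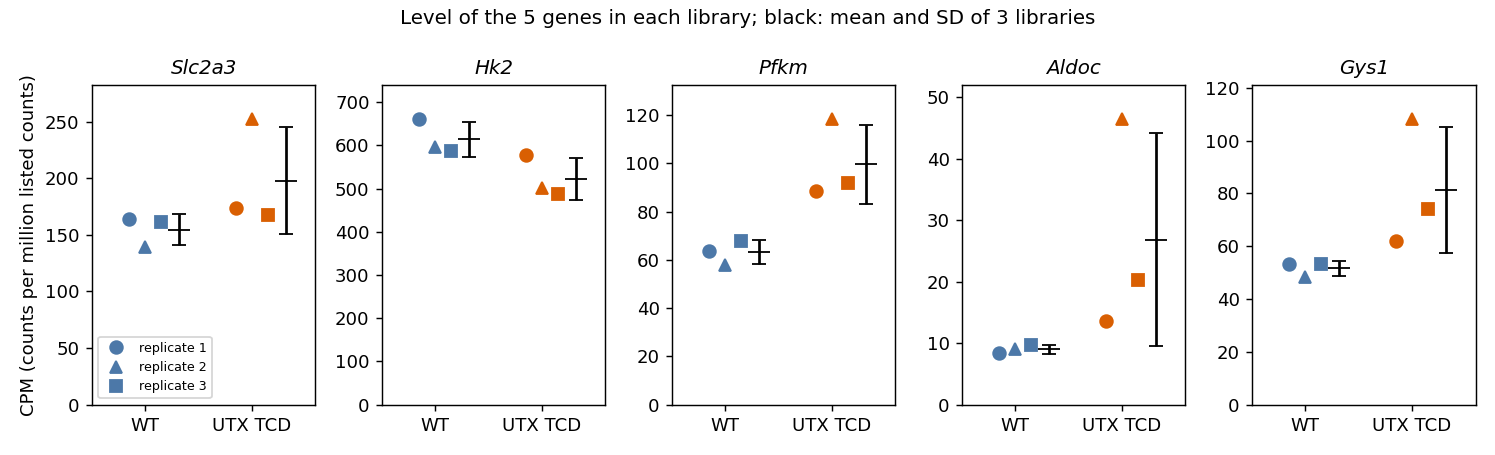
Level of each gene in each library, in CPM on linear axes that start at 0. Points are libraries, with their shape giving the replicate number, and black marks are the mean and SD of 3 libraries. UTX TCD replicate 2 holds the highest value of Slc2a3, Pfkm, Aldoc and Gys1, and Hk2 is highest in WT replicate 1.

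Slc2a3 encodes GLUT3, a glucose transporter with high affinity. It lies on chromosome 6 from 122727809 to 122801640 (ENSMUSG00000003153, GRCm38). In WT replicates 1, 2 and 3 its level was 164, 139 and 162 CPM, against 173, 252 and 168 CPM in the UTX TCD libraries, in the same order of replicates as in all lists of values here. UTX TCD replicates 1 and 3 lay just above the highest WT library, and replicate 2 lay far above all others. The means were 155 ± 13.7 and 198 ± 47.3 CPM, a log2 fold change of 0.35 ± 0.17 that did not pass (edgeR adjusted p = 0.0805). Without UTX TCD replicate 2 it was 0.13 (edgeR adjusted p = 0.172), and the mean of the other two libraries was 1.10-fold that of WT.

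Hk2 encodes hexokinase 2, the inducible hexokinase that commits glucose to the cell and binds the outer mitochondrial membrane. It lies on chromosome 6 from 82725025 to 82774454 (ENSMUSG00000000628, GRCm38). Its level was 661, 597 and 586 CPM in WT libraries, against 577, 500.6 and 487 CPM in UTX TCD libraries. All 3 UTX TCD libraries lay below all 3 WT libraries, and the lowest WT and the highest UTX TCD library were close. The means were 614 ± 40.3 and 522 ± 48.5 CPM (-0.24 ± 0.10, edgeR adjusted p = 0.0573), short of the threshold. It passed with the gap-centred scaling (-0.31, edgeR adjusted p = 0.0246) and without UTX TCD replicate 1 (-0.31, 0.0221). UTX TCD replicate 2, the highest library for the other four genes, lay between the other two UTX TCD libraries here.

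Pfkm encodes the muscle-type subunit of phosphofructokinase, the enzyme of the committed step of glycolysis. It lies on chromosome 15 from 98092589 to 98132451 (ENSMUSG00000033065, GRCm38). Its level was 63.8, 58.0 and 68.0 CPM in WT libraries, against 88.7, 118 and 91.8 CPM in UTX TCD libraries. Each UTX TCD library was well above each WT library. The means were 63.3 ± 5.0 and 99.6 ± 16.3 CPM, a rise of 0.65 ± 0.14 on the log2 scale (edgeR adjusted p = 0.00791). The call was kept with each library left out, at 0.51 to 0.74, and when the adjustment counted all annotated protein-coding genes (edgeR adjusted p = 0.0422), where the other four genes did not pass. Exons of Pfkm share 341 bases with those of Gm26513 on the same strand and 18 bases with those of Senp1 on the opposite strand, and the sources do not say how reads there were assigned.

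Aldoc encodes aldolase C, an isoform of the enzyme that splits fructose 1,6-bisphosphate, known best from brain. It lies on chromosome 11 from 78322968 to 78327781 (ENSMUSG00000017390, GRCm38). Its level was 8.32, 9.002 and 9.76 CPM in WT libraries, against 13.6, 46.4 and 20.3 CPM in UTX TCD libraries. WT libraries were close together, while the highest UTX TCD library was 3.41 times the lowest. The counts behind these levels were 84, 83 and 86 in WT and 113, 439 and 195 in UTX TCD libraries. The means were 9.03 ± 0.72 and 26.8 ± 17.3 CPM, a rise of 1.57 ± 0.43 (edgeR adjusted p = 0.0181). Without UTX TCD replicate 2 it was 0.91 and still called (edgeR adjusted p = 0.0134), and the call was lost without WT replicate 1 (1.51, 0.0607) or WT replicate 2 (1.56, 0.0622).

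Gys1 encodes the glycogen synthase of muscle and most tissues, which lengthens glycogen chains. It lies on chromosome 7 from 45434844 to 45456619 (ENSMUSG00000003865, GRCm38). Its level was 53.2, 48.5 and 53.1 CPM in WT libraries, against 61.8, 108 and 74.0 CPM in UTX TCD libraries. UTX TCD replicate 1 stood little above WT and replicate 2 highest. The means were 51.6 ± 2.70 and 81.3 ± 24.0 CPM, a rise of 0.66 ± 0.20 (edgeR adjusted p = 0.0241). It was 0.39 without UTX TCD replicate 2 (edgeR adjusted p = 0.0188), and the call was lost without WT replicate 1 (0.68, 0.0662), 2 (0.61, 0.0818) or 3 (0.67, 0.0603). Exons of Gys1 share 310 bases with those of Ruvbl2 on the opposite strand, which fell from 614 ± 21.2 to 490 ± 64.6 CPM (-0.33 ± 0.11, edgeR adjusted p = 0.0320), and the sources used here do not say whether reads there were assigned by strand.

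**Figure D2:**
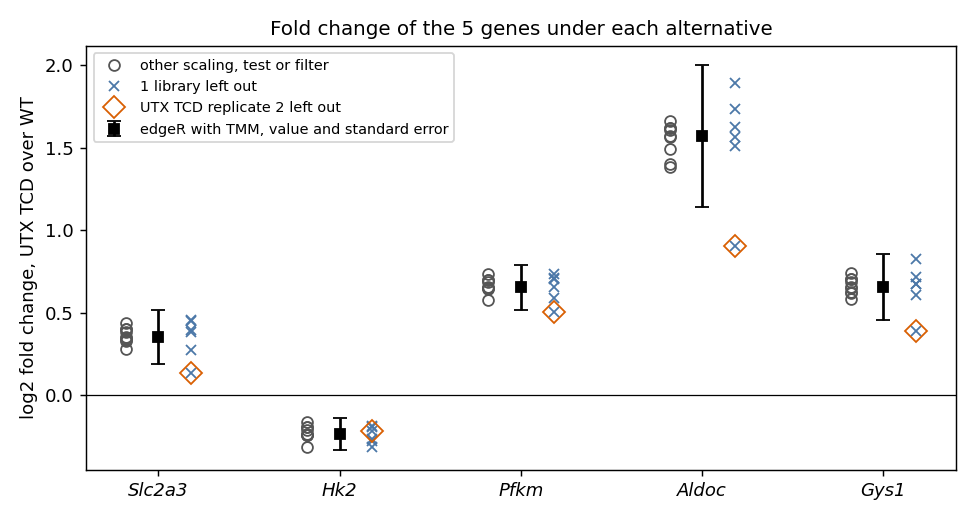
Log2 fold change of UTX TCD over WT for each gene: black squares are edgeR with TMM scaling and its standard error, open circles another scaling, test or filter, crosses 1 library left out, diamonds UTX TCD replicate 2 left out. Aldoc goes from 1.57 to 0.91 and Slc2a3 from 0.35 to 0.13 without UTX TCD replicate 2, and no value crosses 0.

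Against the rest of the table the 5 changes were small to moderate, apart from Aldoc. A larger absolute log2 fold change was seen in 9.57% of tested genes for Aldoc, in 33.6% for Pfkm and 33.5% for Gys1, and in 63.2% for Slc2a3 and 84.1% for Hk2. Slc2a3 lay above and Hk2 below the gap around 0. Their ranks by absolute change were 2602 and 3466 of 4118 tested genes, so neither marked the edge of the gap.

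**Figure D3:**
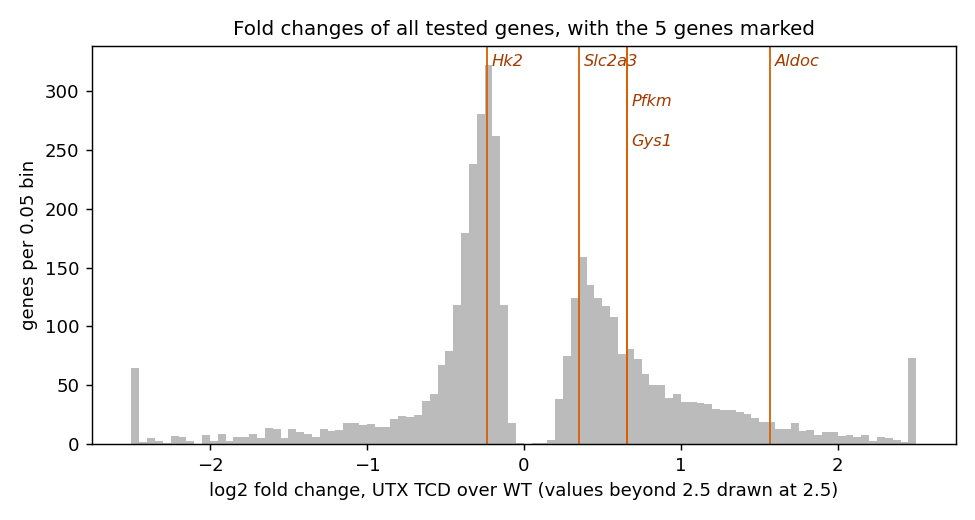
Number of tested genes by log2 fold change of UTX TCD over WT, in bins of width 0.05, with the 5 genes as lines. The region around 0 is nearly empty, with 20 of 4118 genes within 0.1 of it, and Hk2 and Slc2a3 lie on either side of the gap.

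Levels between the 5 genes were compared per length, as CPM per kilobase of the longest protein-coding transcript. Hk2 was the most abundant at 111 ± 7.32 CPM per kilobase in WT, then Slc2a3 at 39.1 ± 3.47, Pfkm at 22.0 ± 1.74, Gys1 at 14.0 ± 0.73 and Aldoc at 3.24 ± 0.26. In WT no neighbours in this order overlapped. UTX TCD libraries had the same order, with Hk2 at 94.6 ± 8.80, Slc2a3 at 49.9 ± 11.9, Pfkm at 34.6 ± 5.65, Gys1 at 22.1 ± 6.53 and Aldoc at 9.61 ± 6.22 CPM per kilobase. There the intervals of 1 SD around the means of Slc2a3 and Pfkm overlapped, as did those of Gys1 and Aldoc. The values themselves did not overlap. The lowest Slc2a3 value was 42.3 and the highest Pfkm value 41.1, and the lowest Gys1 value was 16.8 and the highest Aldoc value 16.7. The order was the same in all 6 libraries.

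The shift among the 5 genes is restated here as counts relative to Hk2 in the same library, which need no scaling between libraries. Pfkm had 9.66, 9.73 and 11.6 counts per 100 Hk2 counts in WT and 15.4, 23.6 and 18.8 in UTX TCD libraries. For Gys1 these were 8.05, 8.13 and 9.06 in WT and 10.7, 21.6 and 15.2 in UTX TCD libraries. Both genes thus gained on Hk2 in every UTX TCD library. Slc2a3 had 24.8, 23.3 and 27.6 counts per 100 Hk2 counts in WT and 30.0, 50.4 and 34.4 in UTX TCD libraries, and Aldoc had 1.26, 1.51 and 1.67 in WT and 2.36, 9.27 and 4.17 in UTX TCD libraries. Mean ratios were 1.52-fold higher for Slc2a3, 1.87-fold for Pfkm, 1.88-fold for Gys1 and 3.56-fold for Aldoc, and the groups did not overlap for any of them. That lack of overlap was fixed by the CPM values. Every UTX TCD library lay above every WT library for these genes, and below for Hk2. The ratios are thus no second line of support. In CPM the groups did not overlap for 85.8% of all tested genes, and that share was not computed for ratios. Hk2 was picked as the base after values were seen and had lower values in UTX TCD cells, which raises each ratio. These ratios show unequal change and not which gene of a pair changed, and they were not tested.

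**Figure D4:**
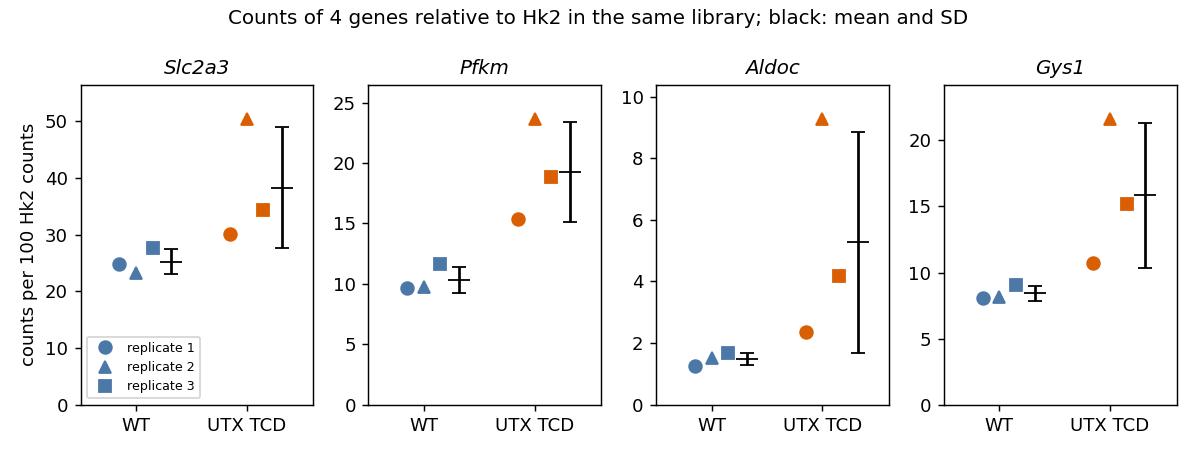
Counts of Slc2a3, Pfkm, Aldoc and Gys1 per 100 Hk2 counts of the same library, on linear axes that start at 0. Points are libraries, and black marks are the mean and SD of 3 libraries. Every UTX TCD library lies above every WT library for each gene, which follows from the CPM values.

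Genes with the most similar course over the 6 libraries were found by the root-mean-square difference of log2 CPM, centred on each gene's mean, among 3581 other genes with a mean of at least 10 CPM. For Slc2a3 these were Parp11, Pml and Aff1, at 0.032, 0.055 and 0.066 log2 units. Hk2 was nearest to Esf1, Caap1 and Abl2, at 0.019, 0.031 and 0.033, and Pfkm to Cyth1, Mpnd and Wdr45, at 0.038, 0.047 and 0.050. Gys1 was nearest to Gtpbp2, Lgals8 and Irf9, at 0.048, 0.056 and 0.056. Aldoc had fewer close neighbours, with Acss2, Tsc22d3 and Trim34a at 0.11, 0.14 and 0.14. Within 0.15 log2 units lay 1136 genes for Hk2, 424 for Pfkm, 185 for Slc2a3, 183 for Gys1 and 4 for Aldoc. Profiles were not scaled for the size of change, a log2 fold change of -0.24 for Hk2 and 1.57 for Aldoc. These counts thus reflect that size as well as the shape of the course. Among the 5 genes themselves Pfkm and Gys1 were most alike, at 0.12 log2 units, and Hk2 and Aldoc least, at 0.99.

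Genes of glucose transport and glycolysis changed in both directions. Of 55 genes on this list, which holds Slc2a3, Hk2, Pfkm and Aldoc too, 12 were tested and the other 43 were not analysed here. Of the 12, 4 were called higher, 4 lower and 4 did not pass (66.7% called, median log2 fold change -0.23, beside 68.1% and -0.15 over all tested genes). Beside Pfkm and Aldoc, the higher genes were Slc2a9 and Eno2. Slc2a9, a family member of Slc2a3 known as a urate transporter, rose from 9.41 ± 0.58 to 25.5 ± 5.90 CPM (1.44 ± 0.22, edgeR adjusted p = 0.00301). Eno2, the neuronal enolase isoform, rose by 1.41 ± 0.50 and had 10.8, 35.8 and 11.04 CPM in UTX TCD libraries against 5.75 to 8.97 CPM in WT. It was 0.59 without UTX TCD replicate 2, where it did not pass.

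Among the lower genes Galm, the galactose mutarotase, fell from 119 ± 14.0 to 43.5 ± 2.74 CPM (-1.45 ± 0.12, edgeR adjusted p = 5.2e-04). Eno3, the muscle enolase isoform, fell by 0.62 ± 0.19. Gapdh, glyceraldehyde 3-phosphate dehydrogenase, fell from 101 ± 5.79 to 74.7 ± 11.2 CPM (-0.43 ± 0.13), and Bpgm, bisphosphoglycerate mutase, fell by 0.27 ± 0.10. Gapdh has many processed pseudogenes and reads shared with them may be missing from its count. The enolase isoforms were thus called in opposite directions, Eno2 higher and Eno3 lower. Calls of Galm and Slc2a9 were kept with each library left out, Gapdh and Bpgm lost theirs without any 1 WT library, Eno2 also without UTX TCD replicate 2, and Eno3 kept its call only without UTX TCD replicate 2. The calls on this list fell from 8 to 3 without WT replicate 1 or 2 and to 4 without WT replicate 3. Over the whole table they fell from 2803 to 1214, 1081 and 1739 without WT replicates 1, 2 and 3.

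Of 32 genes of pyruvate and lactate handling 8 were tested, with 1 higher, 4 lower and 3 not called (62.5% called, median -0.25, beside 68.1% called over all tested genes). Emb, embigin, and Bsg, basigin, partner proteins of the monocarboxylate transporters, fell by 0.56 ± 0.07 and 0.26 ± 0.07, and Slc16a1, the lactate transporter MCT1, went from 841 ± 44.7 to 626 ± 76.9 CPM (-0.43 ± 0.11, edgeR adjusted p = 0.0140). Dlat, a subunit of the pyruvate dehydrogenase complex, fell by 0.25 ± 0.09. Pdk2, a kinase that inhibits that complex, rose from 5.92 ± 2.13 to 15.6 ± 3.27 CPM (1.40 ± 0.33, edgeR adjusted p = 0.0119). Emb and Pdk2 kept their calls with each library left out, Slc16a1 and Bsg lost theirs without WT replicate 1 or 2, and Dlat without any 1 WT library or UTX TCD replicate 3. The calls fell to 2 without WT replicate 1 or 2, and without UTX TCD replicate 2 they were 1 higher and 6 lower. Over the whole table calls fell from 2803 to 1214 and 1081 without WT replicates 1 and 2. Without UTX TCD replicate 2 they were 1605 higher and 1458 lower.

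Of 37 glycogen genes, Gys1 among them, 8 were tested and called higher (median 0.60). These include Epm2a, which passed the filter on low counts through the UTX TCD libraries alone and so had to differ. The 7 that reached the filter's level in both genotypes were called higher (median 0.54), where 41.1% of all tested genes were called higher. Of the rest, 28 were not analysed here. Pygl had 19 counts over the WT and 63 over the UTX TCD libraries and was below the filter. Genes that break glycogen down rose beside the synthase. Pygb, brain-type glycogen phosphorylase, had 294, 293 and 299.8 CPM in WT libraries, against 391, 454 and 414 CPM in UTX TCD libraries (0.51 ± 0.08, edgeR adjusted p = 0.00401). Phkg2, a catalytic subunit of phosphorylase kinase, rose by 0.54 ± 0.11 and Gaa, the lysosomal enzyme that degrades glycogen, by 0.38 ± 0.08. Epm2a, the glycogen phosphatase laforin, had 0, 5 and 1 counts in WT and 14, 20 and 14 counts in UTX TCD libraries. Ppp1r3b, chosen after its values were seen, targets protein phosphatase 1 to glycogen, and its level ran from 8.32 to 9.54 CPM in WT and was 11.7, 33.0 and 18.3 CPM in UTX TCD libraries (1.22 ± 0.37, edgeR adjusted p = 0.0231). It was 0.73 without UTX TCD replicate 2. The calls were 4, 3 and 3 without WT replicates 1, 2 and 3 and 6 without UTX TCD replicate 2, all of them higher. Epm2a was counted in each of these apart from the fit without WT replicate 3. Over the whole table the calls were 1214, 1081, 1739 and 3063 in the same order, beside 2803 with all libraries. Calls of Pygb and Phkg2 were kept with each library left out, while Gaa lost its call without WT replicate 2, Epm2a without WT replicate 3 and Ppp1r3b without any 1 WT library.

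**Figure D5:**
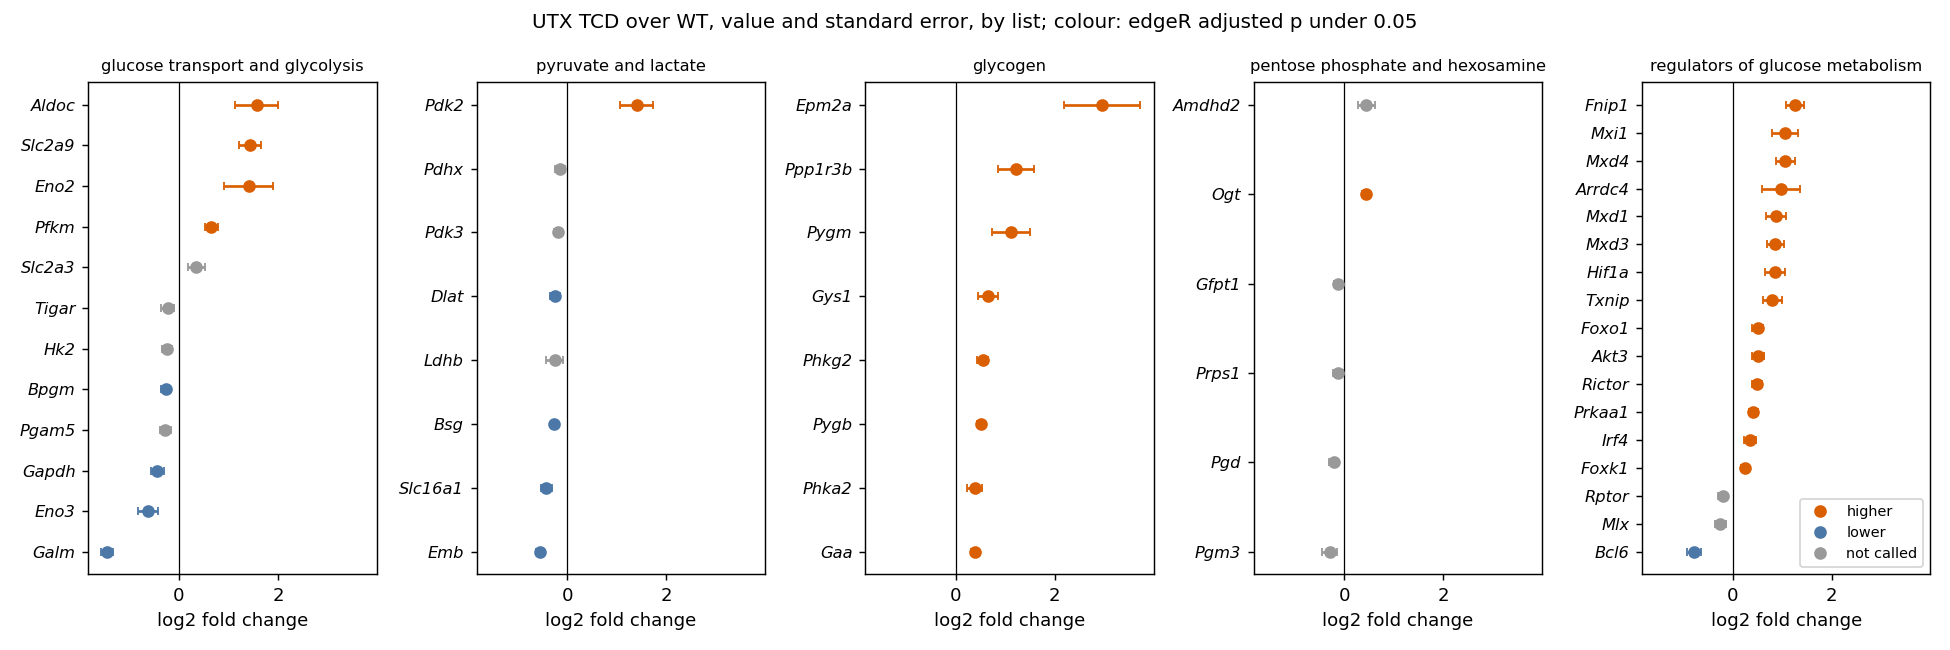
Log2 fold change of UTX TCD over WT with its standard error for each tested gene of 5 lists, coloured by call at an edgeR adjusted p under 0.05. The 8 tested glycogen genes lie to the right of 0, among them Epm2a, which passed the low-count filter through the UTX TCD libraries alone. Glycolytic genes lie on both sides, and 14 of 17 regulators are called higher.

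Genes of the pentose phosphate and hexosamine pathways, which branch off glycolysis, gave 1 call among 6 tested of 27 (16.7% called, median -0.13, beside 68.1% called over all tested genes). It was Ogt, the enzyme that attaches N-acetylglucosamine to proteins, which rose from 581 ± 3.24 to 791 ± 55.3 CPM (0.44 ± 0.08, edgeR adjusted p = 0.00514). Calls numbered 2 with upper-quartile scaling, gap-centred scaling or DESeq2, and 3 without UTX TCD replicate 1.

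Regulators of glucose metabolism were mostly called higher, 14 of 17 tested out of 52, with 1 lower and 2 not called (88.2% called, median 0.51, beside 68.1% called and 41.1% called higher over all tested genes). Among the 17, 11 peaked in UTX TCD replicate 2, as did 71.3% of all genes called higher and 32.8% of all tested genes. Fnip1, a partner of folliculin and AMP-activated kinase, rose from 165 ± 4.66 to 392 ± 109 CPM (1.25 ± 0.18, edgeR adjusted p = 0.00267). Mxd4 and Mxd3, which oppose MYC at E-boxes, rose by 1.06 ± 0.19 and 0.86 ± 0.17, and Rictor, a subunit of mTOR complex 2, rose by 0.49 ± 0.10. Bcl6, a repressor of glycolytic genes in T cells, fell from 63.0 ± 4.47 to 36.6 ± 5.60 CPM (-0.78 ± 0.15, edgeR adjusted p = 0.00551). Hif1a, the oxygen-regulated HIF subunit, and Txnip, which restrains glucose uptake, were chosen after their values were seen. Hif1a ran from 1048 to 1140 CPM in WT and was at 1693, 2730.5 and 1570.3 CPM in UTX TCD libraries. Its highest library was that of Slc2a3, Pfkm, Aldoc and Gys1, and of 71.3% of all genes called higher. Txnip rose by 0.80 ± 0.19. The log2 fold change of Hif1a was 0.85 ± 0.20, and 0.55 without UTX TCD replicate 2. Without WT replicate 2 the calls were 8 higher and 1 lower, beside 730 higher and 351 lower over the whole table. Hif1a and Txnip lost their calls there, while Fnip1, Mxd4, Mxd3, Rictor and Bcl6 kept theirs with each library left out.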

How the data were processed

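Naive splenic CD4+ T cells of 3 WT and 3 UTX TCD mice were sequenced after 48 h of stimulation. The authors deposited raw read counts for 4162 genes, without normalization. FastQC, HISAT2, HTSeq and build mm10 are named in the submitters' processing notes. No version, gene annotation or strand setting is given in the sources used here, nor is the rule by which genes were listed. Columns were tied to samples by the genotype and number in their titles. Replicates differed beyond sampling noise (chi-square per degree of freedom 7.01 to 86.7), so none was counted as a duplicate.

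Counts were tested with edgeR 4.0.16 (quasi-likelihood F test, genotype as the term, R 4.3.3), with the default filter (minimum count 10, minimum total 15), TMM scaling and Benjamini-Hochberg adjustment over 4118 genes. Standard errors were derived from the log2 fold change and the F statistic. The script was tested on simulated data. Alternatives were RLE, upper-quartile, unscaled and gap-centred scaling, DESeq2 1.42.0, limma-voom (limma 3.58.1), no filter, a replicate block, each library left out, and adjustment over 21951 annotated protein-coding genes. Coordinates and transcript lengths come from GENCODE M21 (GRCm38). The longest protein-coding transcripts were searched against all GENCODE transcripts for stretches of at least 75 bases with 90% identity in other genes, and Ruvbl2 with Gys1 was the match found.

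The genes and lists were chosen with earlier results of these data known. Named are the 5 genes, called members of their families, up to 4 called genes per list and direction with the smallest p, and the 3 genes nearest in profile to each. Kdm6a, cell type markers and genes that overlap the 5 are named as checks, and the text marks names picked later. Ratios to Hk2 were added after values were seen.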

Additional observations from a re-analysis of the deposited data

How the results depend on the processing

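All 5 genes kept their direction under every alternative run. Pfkm kept its call in each, and Slc2a3 passed in none. Hk2 passed with gap-centred scaling (-0.31) and without UTX TCD replicate 1 (-0.31). When the adjustment counted all annotated protein-coding genes, Aldoc (1.57) and Gys1 (0.66) lost their calls, 926 genes of the table remained called, and members called were 3 for glycolysis, 1 for pyruvate and lactate, 3 for glycogen and 7 for regulators. The pentose phosphate and hexosamine list had 2 calls with upper-quartile scaling, gap-centred scaling or DESeq2. The cause of these changes was not tested, apart from the larger number of tests.

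With 1 library left out, log2 fold changes ran from -0.31 to -0.18 for Hk2, 0.91 to 1.89 for Aldoc, 0.39 to 0.83 for Gys1, 0.51 to 0.74 for Pfkm and 0.13 to 0.46 for Slc2a3. Genes called over the table ran from 1081 to 3252, the lowest without WT replicate 2. Members called ran from 3 to 10 for glycolysis, 2 to 7 for pyruvate and lactate, 3 to 9 for glycogen, 1 to 3 for pentose phosphate and hexosamine and 9 to 16 for regulators. The glycogen counts include Epm2a, apart from the fit without WT replicate 3.

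Whether replicate numbers shared between genotypes pair the mice cannot be settled from 3 libraries per genotype. Deviations from the group means correlated at 0.28, -0.28 and 0.18 for numbers 1, 2 and 3, and not every library correlated best with its own number. With the replicate block, 2633 genes were called in place of 2803, the 5 genes kept their calls or lack of one, and the log2 fold changes were 0.33 for Slc2a3, -0.24 for Hk2, 0.64 for Pfkm, 1.39 for Aldoc and 0.62 for Gys1. Depth limits Aldoc most, with 83 to 439 counts per library.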
